A study of Mus musculus with 12 samples.

Results

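The Ikaros and Bcl11 factors are 7 zinc finger transcription factor genes of lymphoid cells: Ikzf1 (Ikaros), Ikzf2 (Helios), Ikzf3 (Aiolos), Ikzf4 (Eos), Ikzf5 (Pegasus), Bcl11a and Bcl11b. They were followed through all probe sets that the platform annotation assigns to these symbols, 24 of the 45037 probe sets on the array. A probe set is a group of short probes against 1 transcript region. Ikzf1 and Ikzf5 had 2 probe sets each, Ikzf2, Ikzf3 and Ikzf4 had 3 each, Bcl11b had 4 and Bcl11a had 7.

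The cells were pre-pro-B cells of C57BL/6 mice that lack Ebf1 in every group, kept on OP9 stroma with serum at 4%, SCF and Flt3L at 10 ng/ml each and IL-7 at 5 ng/ml. They were infected with a retrovirus for GFP alone (MigR1, the control), for EBF1 with GFP or for PAX5 with GFP, and sorted for GFP at 2 days. Each of 4 groups had 3 arrays: controls and EBF1 in a first set, controls and PAX5 in a second set. The labels do not say whether the controls of the second set are separate hybridisations from those of the first. EBF1 and PAX5 are delivered from a virus and not from their own loci, the age and number of the mice are not given in the sources used here, and the labels do not say whether replicates are separate cultures, and the p-values cover no more than the spread among the arrays at hand, which may be technical.

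Ikaros proteins bind DNA through an amino-terminal block of zinc fingers and pair with each other through a carboxy-terminal block. Ikaros is present from stem cells onward and is needed for lymphoid development, Aiolos appears as B cell precursors mature, and Helios and Eos are best known from T cells. Bcl11a is needed for B cell development and is also known from plasmacytoid dendritic cells and from globin switching, while its paralog Bcl11b is a factor of T cell commitment. Ikaros recruits the NuRD corepressor, and both Bcl11 proteins are found in the BAF chromatin remodeller.

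Promoter sequence is shown for Bcl11a, which rose with PAX5, for its paralog Bcl11b and for Ikzf1, neither of which passed the test. The sequences are RefSeq windows of GRCm38.p6, each 250 bases before a listed transcript start, on the strand of the gene. The windows lie at chr11:24080445-24080694 (plus strand) for Bcl11a, chr12:108003415-108003664 (minus strand) for Bcl11b and chr11:11685675-11685924 (plus strand) for the first of 2 Ikzf1 starts. Capitals mark matches to CCCNNGGG, the core of the EBF motif, or to TGGGAA, a core of the Ikaros motif, both searched on either strand.
Bcl11a: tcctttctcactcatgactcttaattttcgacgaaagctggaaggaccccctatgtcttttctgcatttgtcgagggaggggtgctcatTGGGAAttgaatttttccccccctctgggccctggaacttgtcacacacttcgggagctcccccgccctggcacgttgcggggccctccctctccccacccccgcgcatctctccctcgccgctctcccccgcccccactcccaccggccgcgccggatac
Bcl11b: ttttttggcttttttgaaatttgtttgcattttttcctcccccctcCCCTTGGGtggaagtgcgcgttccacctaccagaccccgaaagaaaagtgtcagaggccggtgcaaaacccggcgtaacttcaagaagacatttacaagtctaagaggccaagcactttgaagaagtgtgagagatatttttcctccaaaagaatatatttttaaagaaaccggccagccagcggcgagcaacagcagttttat
Ikzf1: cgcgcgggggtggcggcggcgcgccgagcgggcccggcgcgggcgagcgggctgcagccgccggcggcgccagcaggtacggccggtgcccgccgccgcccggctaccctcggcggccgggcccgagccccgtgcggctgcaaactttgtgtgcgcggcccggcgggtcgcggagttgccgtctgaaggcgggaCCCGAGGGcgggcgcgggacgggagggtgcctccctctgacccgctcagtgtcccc
The Bcl11a window held TGGGAA, 161 bases before the start, and no CCCNNGGG. The Bcl11b window held CCCTTGGG, 204 bases before its start, and the Ikzf1 window held CCCGAGGG, 56 bases before. Of 32851 windows of the same length, 21.6% held TGGGAA and 11.8% held CCCNNGGG. GCGTGAC, a core of the PAX5 motif that 1.78% of the windows held, was in 0 of the 5 windows of the family. No motif overlapped another, a match is a description of letters and not a binding site, and windows matched for 4 of the 7 genes (Ikzf1, Ikzf5, Bcl11a and Bcl11b).

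Some properties of the arrays bear on all values. The spread between arrays was taken as the robust SD of the log2 difference over the 12889 brightest probe sets. Between the sets, control arrays with the same number were close (0.0392 to 0.0942), unlike control arrays with different numbers (0.287 to 0.374). Some dimmer probe sets were offset between the controls of the sets, such as Csf1r at 30.2 to 35.2 in the first and 466 to 527 in the second. PAX5 arrays 2 and 3 differed by 0.0774, so each pair of close arrays was counted as 1 sample. This leaves 3 control, 3 EBF1 and 2 PAX5 samples, and both comparisons share the controls. Median intensity ran from 55.1 to 68.9, and precision is limited by how few arrays there were. Pax5 read 1849, 891 and 932 on the PAX5 arrays against 7.98 to 12.8 on their controls. Ebf1 read 1886 to 2477 on all 12 arrays, but as the position of its probes against the mutation and the viral insert is not given here, it checks nothing. The pre-pro-B label was set beside 8 progenitor markers. On the controls Ptprc read 5609 to 6434, Flt3 1822 to 2927, Cd34 2146 to 3145, Cd93 2032 to 4127 and Il7r 737 to 3111. Kit, Ly6d and Dntt were dimmer, at 99.4 to 287, 87.7 to 131 and 81.3 to 887. Of the 7 B-lineage markers Cd79b, Ms4a1, Vpreb1 and Cd79a read at most 79.1 and Blnk at most 116. Igll1 and Cd22 read up to 164 and 59.3 in the first set and up to 407 and 414 in the second. Markers listed for other cell types were also bright on the controls. From the list for plasmacytoid dendritic cells, Cox6a2 read 5329 to 6328, Ccr9 3840 to 6381, Bst2 1620 to 2630, Tcf4 1155 to 1471 and Irf8 788 to 1804. Siglech was dimmer, at 34.2 to 158. From the myeloid list, Fcgr3 read 2144 to 3195 and Mpo 660 to 1901. Lyz2, Itgam and Csf3r read at most 170, and Cd14 and Elane at most 15.4.

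Bcl11a rose with PAX5. Its 4 brightest probe sets were 2.98 to 4.09 times as bright on average in PAX5 cells as in their controls, and 1 of the 7 passed the test. With EBF1 the same 4 probe sets averaged 2.07 to 2.30 times the control level, and 0 of the 7 passed. No other gene of the family had a probe set past the test in either comparison.

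The probe set that passed was 1456632_at. It read 1192, 854 and 938 on PAX5 arrays 1, 2 and 3, and 213, 292 and 262 on control arrays 1, 2 and 3 of the second set. All 3 PAX5 arrays lay above all 3 controls, and the lowest PAX5 array was well clear of the highest control. The log2 change was 1.96 (SE 0.30, 95% interval 1.29 to 2.64, limma adjusted p = 0.031). Log2 changes here are of intensity plus 16, which understates the change of dim probe sets, and p-values are adjusted over all 45037 probe sets by the Benjamini-Hochberg method. At a threshold of 0.05, 0.515% of all probe sets were called with PAX5 (0.464% as higher), against 1 of 24 (4.17%) in the family.

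A second bright Bcl11a probe set, 1457072_at, read 1537, 1314 and 1263 with PAX5 against 353, 496 and 390 in the controls. The groups again did not overlap, and the log2 change was 1.74 (SE 0.32, limma adjusted p = 0.073). The third, 1419406_a_at, read 1014, 999 and 981 against 291, 376 and 265, up by 1.65 in log2 (SE 0.31, limma adjusted p = 0.076). Its PAX5 arrays, of which 2 and 3 were counted as 1 sample, lay within a narrow band well above the controls. The fourth, 1426552_a_at, was dimmer, at 210, 204 and 204 against 50.6, 87.4 and 70.6, up by 1.41 in log2 (SE 0.34, limma adjusted p = 0.20). With the replicate number as a block, 1457072_at and 1419406_a_at also passed by limma (adjusted p = 0.036 and 0.026), in a fit that counts PAX5 arrays 2 and 3 separately.

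**Figure D1:**
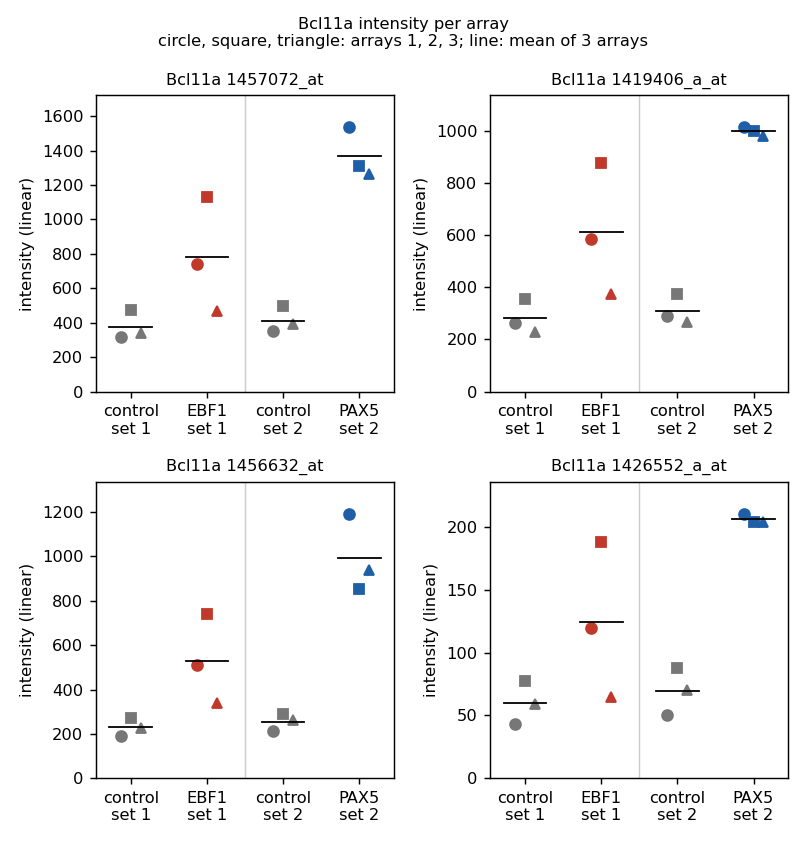
Linear intensity of the 4 brightest Bcl11a probe sets on each array, by group; circles, squares and triangles are arrays 1, 2 and 3, and the line is the mean of 3 arrays. Every PAX5 array lies above every control array of its set in all 4 panels, while EBF1 array 3 lies closest to the controls.

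The other 3 Bcl11a probe sets were dim. Probe set 1447335_x_at, whose suffix marks probes that may match other transcripts, read 53.1, 25.1 and 32.6 with PAX5 against 14.1, 15.97 and 16.6. Probe set 1447334_at read 82.9, 76.6 and 81.5 against 74.5, 57.3 and 66.2. For both, the PAX5 arrays lay above the controls by little or at low intensity, with log2 changes of 0.82 and 0.25 (limma adjusted p = 0.38 and 0.71). Probe set 1453814_at stayed at 25.9 or less on all 12 arrays (log2 change 0.30, limma adjusted p = 0.86). The mean log2 value of all 7 probe sets rose by 1.16 (SE 0.22, limma adjusted p = 0.059 over 18193 genes), an average that includes these dim probe sets.

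The size of the PAX5 change was steadier than its call. For 1456632_at it ran from 1.76 to 2.06 over 18 alternative settings, and the call held under 12 of them. It was lost without control array 1, 2 or 3 (adjusted p = 0.11, 0.086 and 0.13 by limma), without PAX5 array 1 (0.42, with 1 PAX5 sample left, taken to have the spread of the other groups), without EBF1 array 1 (0.060) and with an added constant of 4 (0.069). It was strongest, at 0.0024, when all 12 arrays were counted separately, where 4 Bcl11a probe sets passed.

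With EBF1, Bcl11a was higher than in the controls but did not pass. Probe set 1456632_at read 509, 741 and 339 on EBF1 arrays 1, 2 and 3 against 191, 274 and 227 on the controls of the first set, without overlap (log2 change 1.09, SE 0.27, 95% interval 0.49 to 1.70, limma adjusted p = 0.21). Probe set 1457072_at read 744, 1131 and 467 against 319, 475 and 340, where EBF1 array 3 fell just below the highest control (log2 change 0.95, limma adjusted p = 0.32). Probe set 1419406_a_at read 587, 877 and 374 against 263, 355 and 229 (log2 change 1.02, limma adjusted p = 0.25), and 1426552_a_at read 120, 187 and 65.0 against 43.1, 77.4 and 59.5 (log2 change 0.81, limma adjusted p = 0.43). Array 2 was highest and array 3 lowest among the EBF1 arrays in all 4. Among the controls, array 2 was likewise the highest in all 4.

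EBF1 array 3 stands apart in other transcripts as well. The summed intensity of 11 mesenchymal stroma markers, of the kind OP9 cells express, was 11804 on that array, 2659 and 814 on EBF1 arrays 1 and 2, and 573 to 2207 on the controls of that set. The summed intensity of 7 B-lineage markers was 10912 on it, against 26755 and 18007 on EBF1 arrays 1 and 2 and 299 to 381 on the controls. In bulk RNA, fewer cells of a type and less RNA per cell cannot be told apart, and the part of this in the Bcl11a values was not tested. Without EBF1 array 3, 3 Bcl11a probe sets passed with EBF1: 1456632_at at 1.37, 1419406_a_at at 1.32 and 1457072_at at 1.27 in log2 (limma adjusted p = 0.030, 0.033 and 0.044). That fit called 597 probe sets in all, against 44 (0.0977%, 0.0933% as higher) with array 3 included, and leaving out any other array left 0 family probe sets past the test with EBF1.

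**Figure D2:**
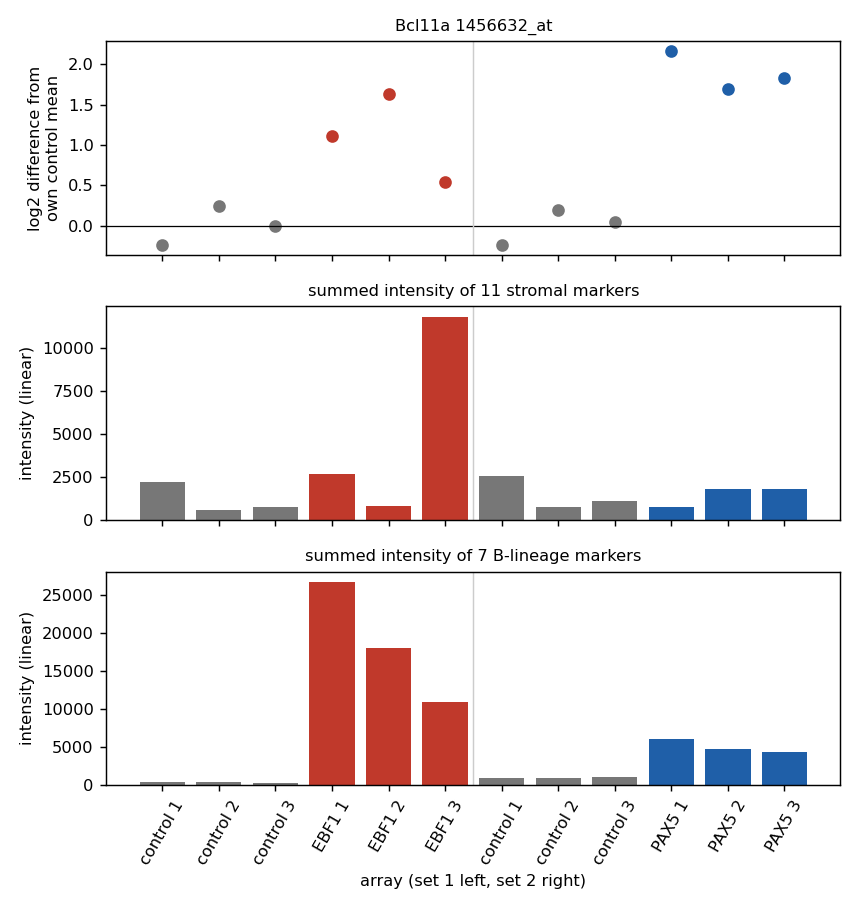
For each of the 12 arrays, the log2 difference of Bcl11a probe set 1456632_at from the mean of its own controls (top), and the summed linear intensity of 11 stromal (middle) and 7 B-lineage markers (bottom). EBF1 array 3 has the lowest Bcl11a difference and the lowest B-lineage sum of the EBF1 arrays, and the highest stromal sum of all arrays at 11804.

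Control and EBF1 arrays share replicate numbers, and set side by side by number they gave a similar picture. For 1456632_at, EBF1 exceeded the control of equal number by 1.34, 1.39 and 0.55 in log2 for numbers 1, 2 and 3. For 1457072_at the differences were 1.18, 1.23 and 0.44, so numbers 1 and 2 nearly coincided and number 3 was lower. With that number as a block, 0 family probe sets passed with EBF1 (adjusted p = 0.32 for 1456632_at by limma), and 7 of all probe sets did.

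Markers of plasmacytoid dendritic cells, which also express Bcl11a, were lower with EBF1 in sum. The summed intensity of 6 such markers was 5396 to 11226 on the EBF1 arrays and 14933 to 16869 on their controls, with no overlap; 0 of the 6 passed the test singly. Singly, Siglech, Tcf4 and Cox6a2 lay below their controls with EBF1, while Bst2, Ccr9 and Irf8 overlapped theirs. With PAX5 the sum was 15348 to 17333 against 14793 to 16626, with single markers moving both ways. Irf8 read 3393 to 5275 with PAX5 against 863 to 1804, and Bst2 1179 to 1350 against 1659 to 2629. The rest overlapped their controls, and 0 of the 6 passed the test with PAX5. Other marker sums also moved beside Bcl11a, and their part in it was not tested. The sum of 7 B-lineage markers was 4347 to 5986 with PAX5 against 952 to 1031, with 1 of the 7 called, Blnk, which carried most of it. The other 6 summed to 995 to 1109 with PAX5 against 852 to 984, and to 10679 to 25560 with EBF1 against 259 to 298. The sum of 8 natural killer markers was 3427 to 8532 with EBF1 against 525 to 769, with 1 of the 8 called, and 1288 to 1911 with PAX5 against 685 to 883, with 0 called. That 1 was the granzyme gene Gzma, named after its values were seen, at 2877 to 8223 with EBF1 against 38.2 to 61.7, and the other 7 summed to 282 to 550 with EBF1 against 486 to 708. With PAX5 those 7 summed to 1231 to 1863 against 630 to 815. Nkg7, also named after its values were seen, carried most of that, at 865 to 1505 against 264 to 514. Gzmb and Il2rb lay below their controls with PAX5, at 97.3 to 107 against 111 to 120 and 64.6 to 86.2 against 103 to 115. Ncr1, Prf1, Eomes and Tbx21 overlapped theirs. The sum of 8 myeloid markers was 1201 to 2788 with EBF1 against 3526 to 5379, with 0 called, and overlapped its controls with PAX5. The stromal sum was 757 to 1779 with PAX5 against 759 to 2568, and the sum of 7 T cell markers was 861 to 1442 with EBF1 and 2544 to 2752 with PAX5, against 1483 to 2575 and 1525 to 2646. Among the T cell markers, Cd3d, Cd3e, Cd3g and Cd4 read at most 49.3 on all 12 arrays, whereas Cd8a read 90.4 to 169, Cd5 62.1 to 214 and Cd28 613 to 2334.

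The EBF1 and PAX5 changes of Bcl11a were compared with a test of their difference. The EBF1 change was smaller by point estimate at all 7 probe sets, and 0 passed, where 1.05% of all probe sets did. For 1456632_at the difference, EBF1 minus PAX5, was -0.87 in log2 (SE 0.30, 95% interval -1.54 to -0.19, unadjusted p = 0.018 and adjusted p = 0.23 by limma). For 1457072_at it was -0.80 (95% interval -1.53 to -0.06, limma adjusted p = 0.31). At unadjusted p under 0.05 there were 3 of the 24 (12.5%), against 14.7% of all probe sets. Both changes share the control samples, and EBF1 array 3 enters the difference.

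**Figure D3:**
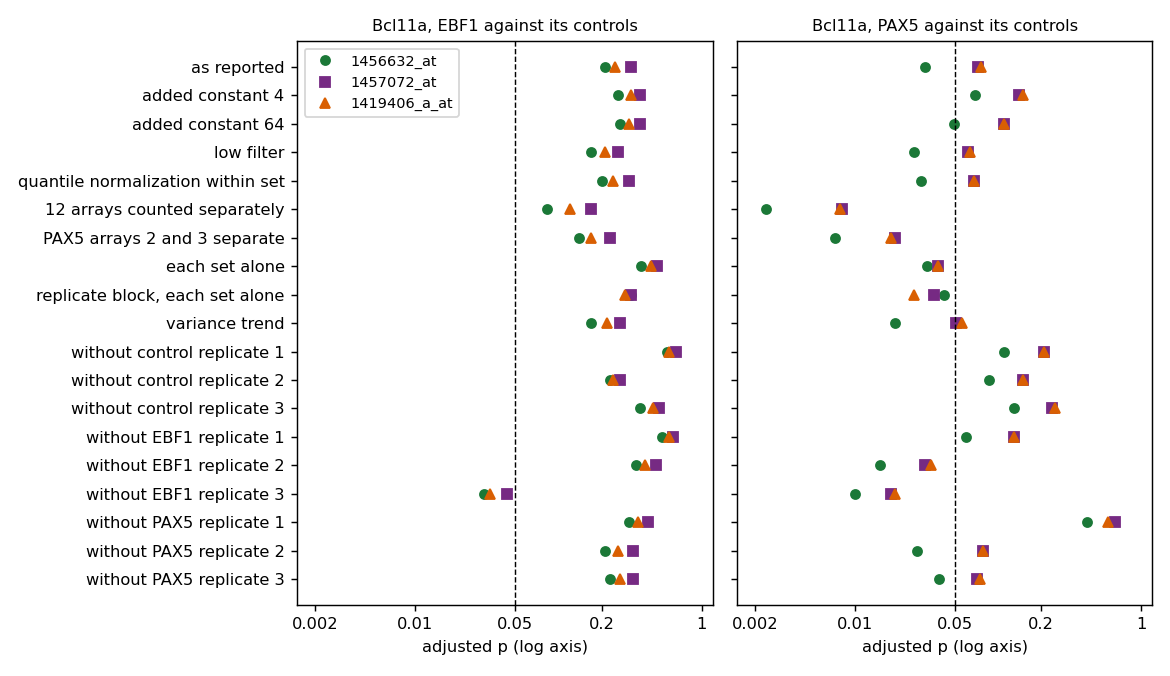
Limma adjusted p (log axis) of 3 Bcl11a probe sets under each setting, for EBF1 (left) and PAX5 (right) against their controls; the dashed line is 0.05. With EBF1 the points cross the line only without EBF1 array 3, and with PAX5 the green points (1456632_at) lie on either side, from 0.0024 to 0.42.

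The 7 Bcl11a probe sets did not vary alike. Over the 8 samples the 4 brightest correlated with each other at r of 0.97 to 0.99 on the log2 scale, whereas 1453814_at correlated with them at 0.19 to 0.31. These are descriptions over samples that fall into groups. Among 9398 other genes with a mean intensity above 100, those whose pattern over the 8 samples was most like that of 1457072_at were Prdx3 (r = 0.963), Padi2 (0.952) and Snx5 (0.951). Prdx3 encodes a mitochondrial peroxiredoxin, Padi2 a peptidylarginine deiminase and Snx5 a sorting nexin.

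Bcl11b was dim in every group. Its brightest probe set, 1450339_a_at, read 51.4, 46.0 and 91.8 with EBF1 against 52.7, 45.0 and 56.0, and 38.2, 78.7 and 65.3 with PAX5 against 60.7, 48.2 and 71.9. The groups overlapped in both comparisons, with log2 changes of 0.19 and -0.13 (limma adjusted p = 0.87 and 0.96). The other 3 probe sets read at most 47.0 on any array. One of them, 1435227_at, read 18.6, 44.0 and 47.0 with EBF1 and 5.51, 27.3 and 17.2 with PAX5, against 17.1, 19.8 and 34.9 and 21.9, 23.1 and 43.9 in the controls. Its difference between the EBF1 and PAX5 changes was 1.02 in log2 (unadjusted p = 0.015, adjusted p = 0.22 by limma), at intensities close to the added constant of 16. The table holds no detection calls, so whether such values exceed background cannot be read from it.

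Ikzf1 was bright in all groups and its level moved little. Probe set 1436312_at read 4859, 5167 and 4667 with EBF1 against 5449, 5237 and 5225 in the controls. It read 5880, 5377 and 5276 with PAX5 against 5334, 5134 and 5132. The EBF1 arrays lay just below their controls, without overlap, and the PAX5 arrays overlapped theirs. The log2 changes were -0.12 (SE 0.11, 95% interval -0.36 to 0.13, limma adjusted p = 0.80) and 0.11 (SE 0.12, 95% interval -0.17 to 0.38, limma adjusted p = 0.90). Both intervals include 0.

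The second Ikzf1 probe set, 1421303_at, was dimmer and more scattered. It read 669, 728 and 453 with EBF1 against 623, 685 and 742, and 826, 623 and 716 with PAX5 against 661, 697 and 800. Again EBF1 array 3 was the lowest, and the groups overlapped in both comparisons. The log2 changes were -0.17 (SE 0.19) and 0.05 (SE 0.21), with limma adjusted p = 0.84 and 0.98.

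Ikzf5 was also measured at intensities well clear of the floor. Probe set 1429431_at read 1236, 1128 and 1181 with EBF1 against 1158, 1127 and 1133, and 1213, 1189 and 1206 with PAX5 against 1237, 1156 and 1227. All 12 arrays lay within 1127 to 1237. The log2 changes were 0.05 (95% interval -0.19 to 0.29) and -0.0015 (95% interval -0.27 to 0.26), with limma adjusted p = 0.93 and 1. Its other probe set, 1436554_at, ranged from 441 to 598 and its groups overlapped in both comparisons (limma adjusted p = 0.94 and 0.98).

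**Figure D4:**
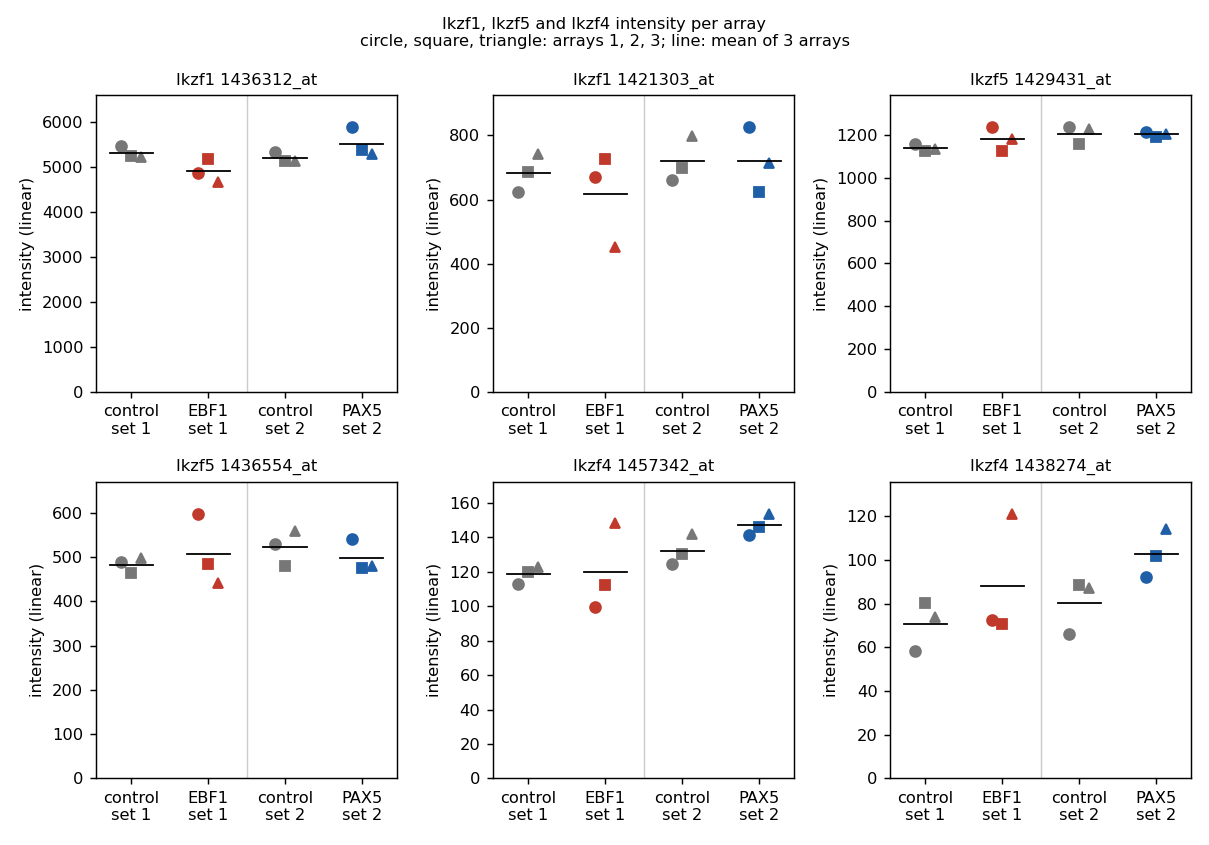
Linear intensity of 2 probe sets each of Ikzf1, Ikzf5 and Ikzf4 on every array, by group; symbols are arrays 1, 2 and 3 and lines are means of 3 arrays. Ikzf5 1429431_at lies between 1127 and 1237 on all arrays, and among the EBF1 arrays the third (triangle) is the lowest for both Ikzf1 and the highest for both Ikzf4 probe sets.

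Ikzf4 was of moderate to low intensity. Probe set 1457342_at read 99.4, 112 and 148 with EBF1 against 113, 120 and 123, and 142, 146 and 154 with PAX5 against 124, 130 and 142. The log2 changes were -0.00058 (SE 0.15) and 0.13 (SE 0.16), with limma adjusted p = 1 and 0.91. Probe set 1438274_at read 72.6, 70.7 and 121 with EBF1 against 58.3, 80.5 and 73.8, and 92.2, 102 and 114 with PAX5 against 66.2, 88.4 and 86.9. The PAX5 arrays lay above their controls without overlap, with a log2 change of 0.27 (95% interval -0.23 to 0.77, limma adjusted p = 0.83). EBF1 array 3 was the highest array of both probe sets within the first set. The third probe set, 1460664_at, was listed at 1 on 8 of 12 arrays.

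Ikzf3, whose product Aiolos rises as B cell precursors mature, was dim on all arrays. Its brightest probe set, 1441088_at, read 54.1, 56.7 and 33.1 with EBF1 against 44.1, 41.8 and 43.3, and 50.4, 53.7 and 53.9 with PAX5 against 51.5, 46.6 and 51.1. EBF1 arrays 1 and 2 were above and array 3 below the controls, and the PAX5 arrays overlapped theirs. The log2 changes were 0.09 (SE 0.16) and 0.05 (SE 0.18), with limma adjusted p = 0.91 and 0.98. Probe set 1436649_at read 37.2, 34.0 and 38.6 with PAX5, below all 3 controls at 52.7, 46.6 and 42.0, with a log2 change of -0.26 (limma adjusted p = 0.70). The remaining probe set, 1453378_at, ranged from 1.17 to 26.7.

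Ikzf2 had the lowest readings of any of its 3 probe sets at 2.48 and the highest at 24.6. Probe set 1437542_at read 21.3, 17.7 and 24.6 with EBF1 against 7.62, 15 and 15.4, without overlap. Its log2 change was 0.38 (SE 0.16, unadjusted p = 0.039, adjusted p = 0.47 by limma). With PAX5 it read 24.4, 22.3 and 18.0 against 7.70, 19.2 and 17.1, with overlap (log2 change 0.34, limma adjusted p = 0.68). The other probe sets changed by -0.30 and 0.32 with EBF1 and by -0.21 and -0.06 with PAX5, so the 3 did not share a direction.

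Across the family, groups did not overlap and were higher for 4 of 24 probe sets with EBF1 (16.7%, against 7.06% of all probe sets) and for 7 of 24 with PAX5 (29.2%, against 8.14%). Of these, 3 and 6 were Bcl11a probe sets. Non-overlap in the lower direction was seen for 1 probe set each, Ikzf1 1436312_at with EBF1 (6.14% of all) and Ikzf3 1436649_at with PAX5 (8.77% of all). The median log2 change of the 17 probe sets other than Bcl11a was 0.06 with EBF1 and -0.0015 with PAX5, beside 0.02 and -0.01 over all probe sets. None of those 17 passed under any of up to 19 alternative settings per probe set, and unadjusted p under 0.05 was reached by 2 with EBF1 and 0 with PAX5. Over all 24, unadjusted p under 0.05 was reached by 7 with EBF1 (29.2%, against 9.97% of all probe sets) and 5 with PAX5 (20.8%, against 8.51%).

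**Figure D5:**
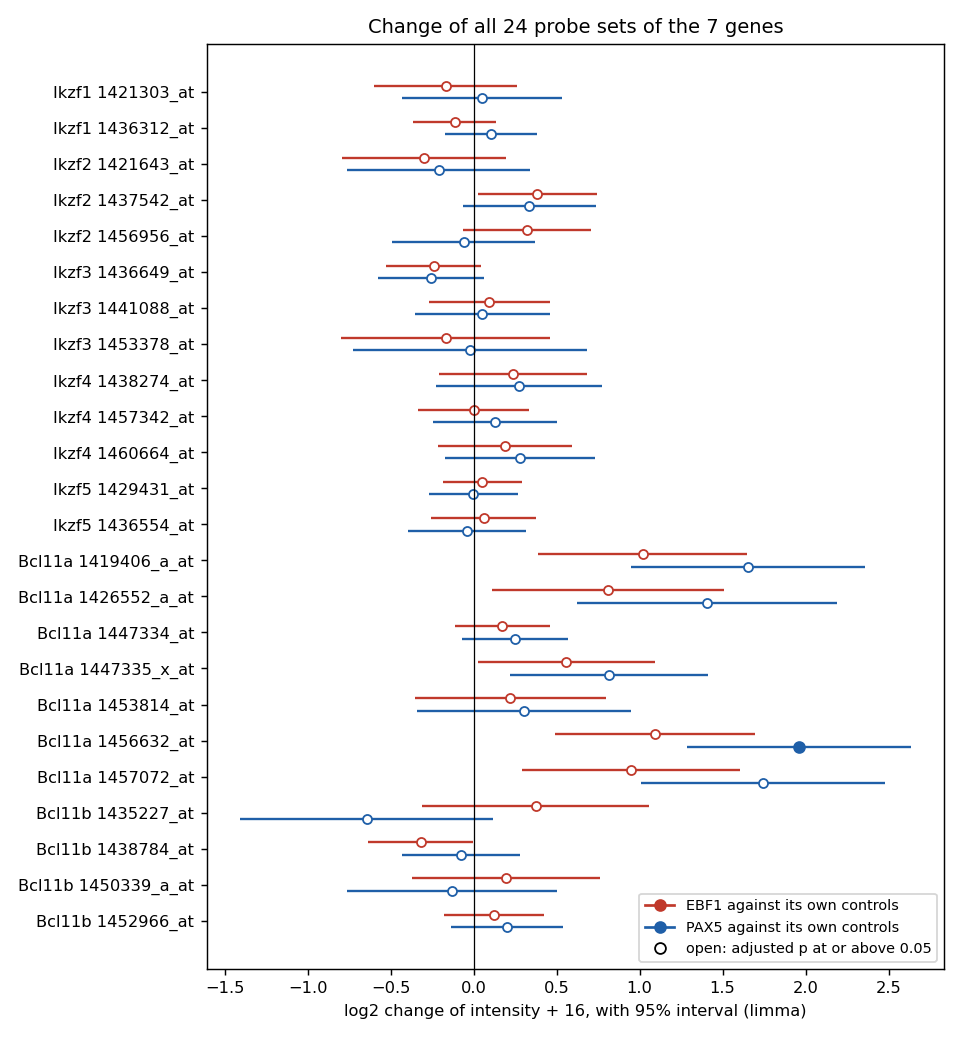
Log2 change (x axis, of intensity plus 16) of all 24 probe sets with its 95% interval, for EBF1 (red) and PAX5 (blue) against their own controls; open points had an adjusted p of 0.05 or more. Bcl11a 1456632_at at 1.96 with PAX5 is the filled point, and the probe sets of the other 6 genes lie between -0.64 and 0.38.

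The protein partners of the family were followed through lists, with each gene represented by its brightest probe set. The lists were drawn from general knowledge with earlier results of these data known. Of 13 NuRD genes, among them the remodeller Chd4 and the deacetylases Hdac1 and Hdac2, 0 passed in either direction with EBF1 or PAX5 by limma. At unadjusted p under 0.05 there were 1 and 2, where 9.97% of all probe sets were with EBF1 and 8.51% with PAX5. Here and for the lists below, that share covers every probe set and not the brightest of each gene, so it is no exact baseline. The median log2 changes of the NuRD genes were -0.09 and -0.06, beside 0.01 and -0.01 over all genes. Of 14 genes of the BAF, CtBP and Sin3 complexes, 0 passed with either factor by limma (2 and 0 at unadjusted p under 0.05), with medians of -0.06 and -0.07. Over all 18193 genes 0.148% were called with EBF1 (0.143% higher and 0.0055% lower) and 0.693% with PAX5 (0.649% higher and 0.044% lower).

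The list of genes known as targets of Ikaros or Aiolos was also drawn with earlier results known. It includes the B-lineage markers Igll1, Vpreb1 and Blnk, so its count is no test of Ikaros activity. Of 18 measured, 4 rose and 0 fell with EBF1. These were Igll1 and Vpreb1, the surrogate light chain genes that Ikaros family members silence as precursors mature, by 5.08 and 6.48 in log2 (limma adjusted p = 0.00012 and 1e-04), Hes1, a Notch-induced repressor, by 3.28 (0.029) and Foxo1, a factor that activates recombination genes, by 2.94 (0.040). Of the 2 Igll1 probe sets and the 4 of Foxo1, 1 each passed. With PAX5, 3 rose and 0 fell: Blnk, the pre-B-cell receptor adaptor, by 5.84 (0.0067), Hes1 by 3.14 (0.021) and the Notch pathway gene Dtx1, by 1.90 (0.0020), at 1 of its 2 probe sets; the other changed by -0.02 with PAX5 and by 1.75 with EBF1 (0.088). The median of the list was 0.26 with EBF1 and 0.03 with PAX5. Unadjusted limma p was under 0.05 for 10 of the 18 with EBF1 and 6 with PAX5, against 9.97% and 8.51% of all probe sets. The Foxo1 and Hes1 calls were lost without control array 1, 2 or 3 (over all alternatives the limma adjusted p reached 0.20 for Foxo1, 0.19 for Hes1 with EBF1 and 0.33 for Hes1 with PAX5), and Blnk lost its call without control array 3 (0.052) or PAX5 array 1 (0.14). The Foxo1 and Hes1 calls with EBF1 were also lost without EBF1 array 2 (0.16 and 0.12) or PAX5 array 1 (0.12 and 0.069), and Foxo1 without EBF1 array 1 (0.072), while Hes1 with PAX5 was lost without PAX5 array 1 (0.33). With the replicate block, Foxo1 and Hes1 did not pass with EBF1 (0.13 and 0.15), leaving 2 of the list, while Foxo1 passed with PAX5 (log2 change 1.25, limma adjusted p = 0.031, against 0.39 without the block), giving 4.

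Of 11 genes known as targets of Bcl11a or Bcl11b, 2 rose and 0 fell with PAX5, and 0 passed with EBF1 by limma. Unadjusted limma p was under 0.05 for 5 with EBF1 and 6 with PAX5, in a list chosen with earlier results known. Over all probe sets the shares were 9.97% and 8.51%. Both genes that passed with PAX5 were embryonic beta-like globins, which Bcl11a is known to silence in red cells. Hbb-bh1 read 6682, 8431 and 8054 with PAX5 against 158, 49.7 and 155 in the controls, far above them on every array (log2 change 5.89, SE 0.69, limma adjusted p = 0.0083). Hbb-y read 341, 731 and 717 against 52.6, 31.0 and 23.8 (log2 change 3.35, SE 0.33, limma adjusted p = 0.0032). All 3 probe sets of each gene passed. The probe sets named carry the suffix for possible cross-hybridisation, so signal of these close relatives may be mixed. Probe sets without that suffix rose by 6.01 and 6.20 in log2 for Hbb-bh1 (limma adjusted p = 0.0019 for each). The Hbb-y probe set without it rose by 1.49 (limma adjusted p = 0.023). Bcl11a and both globins were higher with PAX5 than in the controls. Among the PAX5 arrays, array 1 had the highest Bcl11a at 1456632_at and the lowest value of both globins. It also had the highest Pax5, at 1849 against 891 and 932. As arrays 2 and 3 were counted as 1 sample, this is 1 sample beside 1 other, and a link between these genes was not tested. The Hbb-bh1 call was lost without PAX5 array 1, which leaves 1 PAX5 sample, at a log2 change of 6.04. The summed intensity of 5 other erythroid markers was 252 to 324 with PAX5 and 201 to 282 in the controls. Singly, 0 of the 5 passed with PAX5, and 3 had an unadjusted limma p under 0.05. Gata1 (62.8 to 70.3 against 25.0 to 57) and Slc4a1 (15.1 to 24.4 against 4.56 to 12.7) lay above their controls. Hba-a1 lay below (1 to 13.9 against 17.4 to 26.2), and Klf1 and Epor overlapped theirs.

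Among 11 other transcription factors of early lymphoid cells, 1 rose with PAX5 and 0 with EBF1 by limma, and 0 fell. The 1 was Pax5 itself (log2 change 5.67, limma adjusted p = 4.9e-05), which the virus carried. At unadjusted p under 0.05 there were 2 of the 11 in each comparison, against 9.97% of all probe sets with EBF1 and 8.51% with PAX5. The medians were -0.03 with EBF1 and 0.0049 with PAX5.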

How the data were processed

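The series lists 12 samples on one-colour Affymetrix arrays. The deposited values are linear intensities per probe set. The labels used here do not give how the authors summarised and scaled them. On each array 2.5% to 3.05% of values are exactly 1.

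Symbols came from the platform annotation (34945 probe sets with 1 symbol, 932 with several, 9160 with none), and all 7 genes matched GRCm38.p6 by gene ID. Log2(intensity + 16) was fitted per probe set, unfiltered, with limma 3.58.1 in R 4.3.3, Benjamini-Hochberg adjustment over 45037 probe sets and a threshold of 0.05, with 5 residual and 3.68 prior degrees of freedom. The probe-wise offset between control sets was removed, and control arrays of equal number and PAX5 arrays 2 and 3 were averaged on the log2 scale. The fit was tested on simulated data. Every family probe set is reported. From other lists, genes past the threshold are named, at most the 4 with the lowest adjusted p per list and comparison. Rag1 was added for its difference between EBF1 and PAX5 after values were seen. The 3 genes most like the member past the threshold are named by Pearson r. Alternatives were other constants (4, 64), a filter at 32, quantile normalization, 1 probe set per gene, other counts of arrays, a replicate block, a variance trend and leaving out each array. The mean over probe sets was added after seeing the data.

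Deviations of control and transduced arrays of equal number correlated at 0.35, 0.61 and 0.39 in the first set. In the second set they correlated at 0.41, 0.19 and 0.33. Pairing by number was used only in the replicate block and in the differences between EBF1 and control arrays of equal number. The main fit had no pairing term and averaged the close PAX5 arrays across numbers, so its p-values do not take pairing into account. The members and lists were chosen with earlier results of these data known. Figures were drawn in Python 3.11.15 with matplotlib, version 3.10.9.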

Additional observations from a re-analysis of the deposited data

Results flagged for a closer look

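The EBF1 and PAX5 changes differed, by limma's test of the difference itself, for 7 of the listed genes and for 0 of the 24 family probe sets. EBF1 minus PAX5 was 6.28 in log2 for Vpreb1 (adjusted p = 7.5e-05) and 5.25 for Igll1 (7.2e-05), whose second probe set differed by 0.18 (0.63). For Rag1, a recombinase gene called in neither comparison alone, it was 3.63 (0.042), and it was no longer past the threshold without control array 1 (0.062) or 3 (0.060), EBF1 array 1 (0.13) or 2 (0.12) or PAX5 array 1 (0.42). It was -6.28 for Hbb-bh1 (0.0046), -5.38 for the transduced Pax5 (6.2e-05) and -3.65 for Hbb-y (0.0015). The Dtx1 probe sets went opposite ways, at -2.01 for the brighter (0.0010) and 1.77 for the other (0.037), so Dtx1 has no settled direction. The Hbb-bh1 difference was no longer past the threshold without PAX5 array 1 (0.080).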

How the results depend on the processing

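Counts over all probe sets depended on how arrays were counted. For EBF1 the 44 calls became 14 with a constant of 64, 295 with all 12 arrays separate, 95 with PAX5 arrays 2 and 3 separate, 18 with each set alone and 7 with the replicate block, and ran from 18 (without control array 1) to 597 (without EBF1 array 3) when 1 array was left out. For PAX5 the 232 calls became 153 with a constant of 4, 638, 464 and 122 in the same array settings and 153 with the mean of probe sets per gene, and ran from 50 (without PAX5 array 1) to 263 when 1 array was left out. The replicate block gave 257. For the difference the 473 calls became 287 with a constant of 4, 208 with 12 separate arrays and 1351 with PAX5 arrays 2 and 3 separate, and ran from 78 to 874. The 1 family call with PAX5 became 0 with a constant of 4 or with 1 probe set per gene, 4 with 12 separate arrays, and 3 with PAX5 arrays 2 and 3 separate, each set alone or the replicate block, and ran from 0 to 3 without 1 array. Family calls with EBF1 ran from 0 to 3 without 1 array. The replicate block changed no other family call. No called change turned its direction. The cause of these shifts was not tested, and the counts moved both ways when arrays were left out.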
